A study of Mus musculus with 5 samples.

Results

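The 9 genes described here encode subunits of Polycomb repressive complex 2 (PRC2) and were taken by name from the mouse RefSeq table, which matched all of them among 21631 protein-coding genes. The 4 core genes were Ezh1, Ezh2, Eed and Suz12, and the 5 accessory genes were Jarid2, Mtf2, Phf1, Phf19 and Aebp2. The question addressed was which of these genes lie in or near chromatin with either Polycomb mark. Each gene was examined over its annotated body plus 20 kb on each side.

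The chromatin came from basal progenitors of the epidermis, sorted from K14-RFP;K10-H2B-GFP reporter mice by a Sca1+, RFP-high and GFP- gate. K14 drives expression in basal keratinocytes and K10 in suprabasal ones, so the gate takes basal cells and leaves out the suprabasal layer. All libraries came from adult back skin at postnatal day 71, and their genotype is given as control. The antibody against H2AK119ub gave 2 libraries, that against H3K27me3 gave 2, and 1 library was input. The labels do not say whether libraries came from separate mice. H2AK119ub is ubiquitin on a lysine of histone H2A, placed by PRC1, and H3K27me3 is a trimethyl group on a lysine of histone H3, placed by PRC2. Each mark was deposited as 1 list of called regions without height or replicate, so read depth and replicate error are unknown and no difference could be tested.

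PRC2 methylates histone H3 through the catalytic subunit EZH1 or EZH2, which is active only when assembled with EED and SUZ12. EED binds the methylated product and SUZ12 is the scaffold to which accessory subunits attach. The Polycomb-like proteins PHF1, MTF2 and PHF19 form one class of complex and bind CpG-rich DNA, whereas JARID2 and AEBP2 form the other class and can bind ubiquitinated H2A. In epidermis EZH2 is the form found mainly in dividing basal progenitors, and EZH1 is found more broadly, including in cells that have stopped dividing.

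In these lists none of the 9 members had H3K27me3 within 1 kb of a listed start, and H2AK119ub lay on or close to the start of 3 of them. Within 1 kb of a listed start site, H3K27me3 was called at 0 of 9 members, against 21.6% of the 17274 protein-coding genes with a listed start. H2AK119ub was called there at Jarid2, Phf1 and Phf19, or 3 of 9, against 50.9% of genes. Over the whole window the members were close to other genes. H2AK119ub was present at 7 of 9 members, against 71.8% of all protein-coding genes, and H3K27me3 at 4 of 9, against 44.5%. Both marks were found at 4 members (40.3% of all genes) and neither at 2, Eed and Mtf2 (24.1% of all genes). On the autosomes, where every member lies, the shares of all genes were 71.5% for H2AK119ub and 42.5% for H3K27me3 over the window, and 50.1% and 18.7% at the start. With 9 genes, none of these shares was tested.

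**Figure D1:**
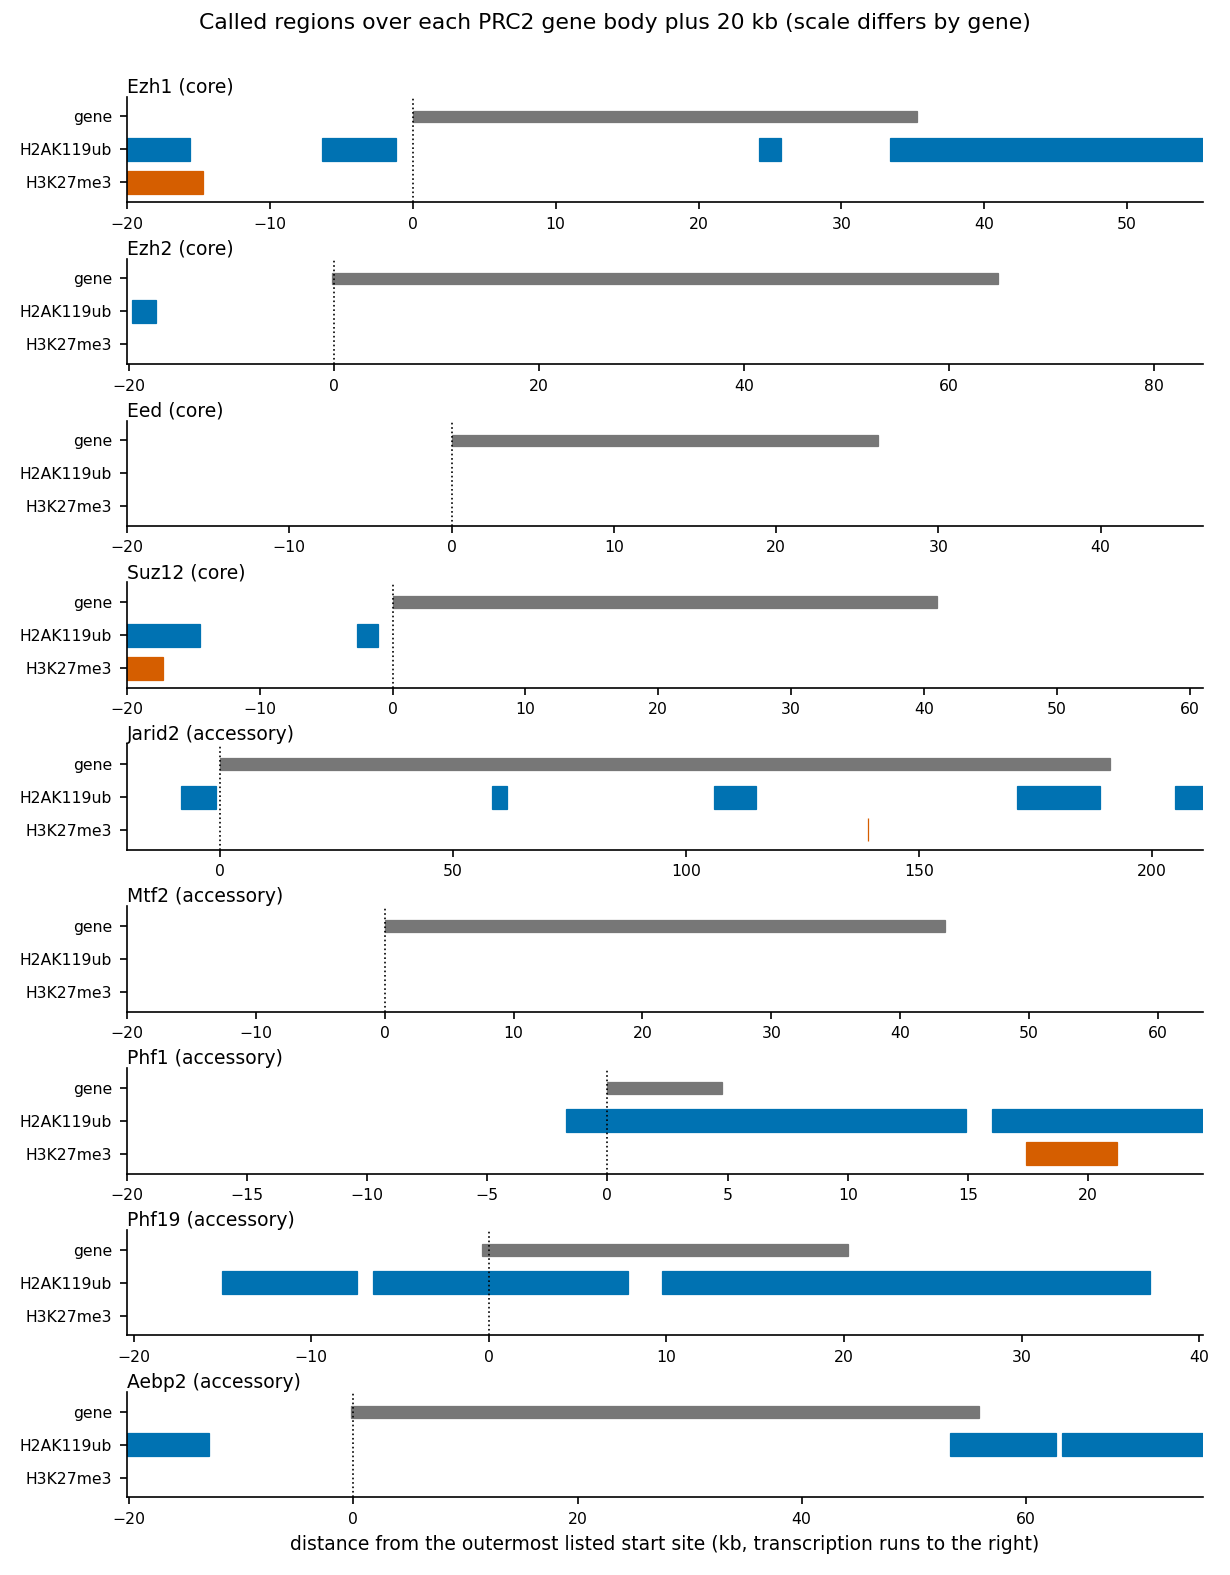
Called regions over the 9 PRC2 genes. Each panel shows distance from the outermost listed start site in kb, with transcription to the right, the gene body in grey, H2AK119ub regions in blue and H3K27me3 regions in orange, trimmed to the window. The start site (dotted line) is under H2AK119ub at Phf1 and Phf19 only, and no start is under H3K27me3.

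The sequences just before 4 start sites are shown because these genes contrast at the start. The start of Phf1 lies under H2AK119ub and that of its paralogue Mtf2 has no region near it, while at Suz12 and Jarid2 an H2AK119ub region ends shortly upstream. Each run is the 250 bases before the outermost start, 5′ to 3′ on the coding strand, from RefSeq (GRCm38.p6), and capitals mark CpG dinucleotides. The intervals are chr17:26932877-26933126 for Phf1, chr5:108065424-108065673 for Mtf2, chr11:79992856-79993105 for Suz12 and chr13:44730524-44730773 for Jarid2, all on the plus strand.
Phf1: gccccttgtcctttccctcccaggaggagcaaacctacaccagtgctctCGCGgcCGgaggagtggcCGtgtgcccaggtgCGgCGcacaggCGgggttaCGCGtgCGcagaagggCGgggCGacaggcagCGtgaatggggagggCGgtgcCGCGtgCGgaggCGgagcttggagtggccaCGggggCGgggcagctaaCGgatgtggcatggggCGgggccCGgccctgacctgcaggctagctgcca
Mtf2: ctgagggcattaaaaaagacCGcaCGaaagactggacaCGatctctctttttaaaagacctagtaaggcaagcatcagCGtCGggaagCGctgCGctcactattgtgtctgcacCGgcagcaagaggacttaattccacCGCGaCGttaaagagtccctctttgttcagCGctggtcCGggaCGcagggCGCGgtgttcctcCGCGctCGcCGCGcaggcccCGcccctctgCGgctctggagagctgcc
Suz12: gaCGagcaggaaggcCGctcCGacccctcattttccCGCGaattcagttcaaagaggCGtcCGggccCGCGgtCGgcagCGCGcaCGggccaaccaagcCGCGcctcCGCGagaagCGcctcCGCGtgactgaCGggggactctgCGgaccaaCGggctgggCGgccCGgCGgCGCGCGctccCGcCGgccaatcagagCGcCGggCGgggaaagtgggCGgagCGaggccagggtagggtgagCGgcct
Jarid2: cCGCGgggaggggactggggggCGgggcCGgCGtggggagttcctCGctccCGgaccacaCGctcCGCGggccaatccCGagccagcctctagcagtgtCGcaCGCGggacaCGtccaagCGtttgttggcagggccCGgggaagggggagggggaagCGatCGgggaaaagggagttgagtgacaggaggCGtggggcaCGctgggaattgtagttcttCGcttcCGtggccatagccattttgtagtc
These runs hold 23 CpG dinucleotides at Phf1, 23 at Mtf2, 37 at Suz12 and 23 at Jarid2. With the 50 bases after the start included, Phf1 held 24 and Mtf2 held 30.

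Of the catalytic subunits, Ezh1 had H2AK119ub on both sides and H3K27me3 upstream only. Ezh2 had almost no H2AK119ub and no H3K27me3 in its window. Ezh1 (chr11:101191115-101226463, minus strand) had 4 H2AK119ub regions in its window, which covered 44.0% of it. The widest, 39.7 kb at chr11:101153394-101193062, reached over the last part of the gene from the neighbours Cntnap1, a neuronal adhesion gene, Ccr10, a chemokine receptor gene, and Plekhh3. It covered the whole of the 20 kb downstream of the gene, and only 7.27% of H2AK119ub regions in the list were wider. Inside the gene lay 1 further region of 1603 bp, and 3.55 kb of the gene body was covered in all. Upstream, a 5.18 kb region at chr11:101227599-101232783 stopped 1136 bp before the start. A 6.86 kb H3K27me3 region at chr11:101241190-101248044, which overlaps Ramp2, a gene for a receptor activity modifying protein, began 14.7 kb upstream of the start of Ezh1. It lay to 87.7% under an H2AK119ub region that also meets Ramp2 and Vps25.

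Ezh2 (chr6:47530274-47595270, minus strand) had no region of either mark on its body. The only region in its window was a 2.28 kb H2AK119ub region at chr6:47612413-47614693, which covered 2.17% of the window and ended 17.4 kb upstream of the start. The nearest H3K27me3 region lay 239 kb from the gene, at chr6:47285639-47290853 in Cntnap2, a neuronal adhesion gene. Measured from the start site that distance was 304 kb, and 16.0% of genes were farther from H3K27me3.

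The partners required for catalysis were bare on their bodies. Eed (chr7:89954654-89980976, minus strand) had no region of either mark in its window. Its nearest H2AK119ub region lay 43.4 kb from the gene and its nearest H3K27me3 region 478 kb, both in sequence with no protein-coding gene. From the start of Eed to H3K27me3 the distance was 496 kb, the longest among the members, and 9.88% of genes had a longer one. Suz12 (chr11:79993106-80034123, plus strand) had regions only upstream. A 1.57 kb H2AK119ub region at chr11:79990422-79991991 ended 1115 bp before the start, and 94.4% of H2AK119ub regions were wider. A second region of 14.5 kb, at chr11:79964125-79978631 over the non-coding gene Gm30875, contained the whole of a 4.60 kb H3K27me3 region at chr11:79971198-79975797. Together the marks covered little of the window, with 8.76% under H2AK119ub and 3.32% under H3K27me3.

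**Figure D2:**
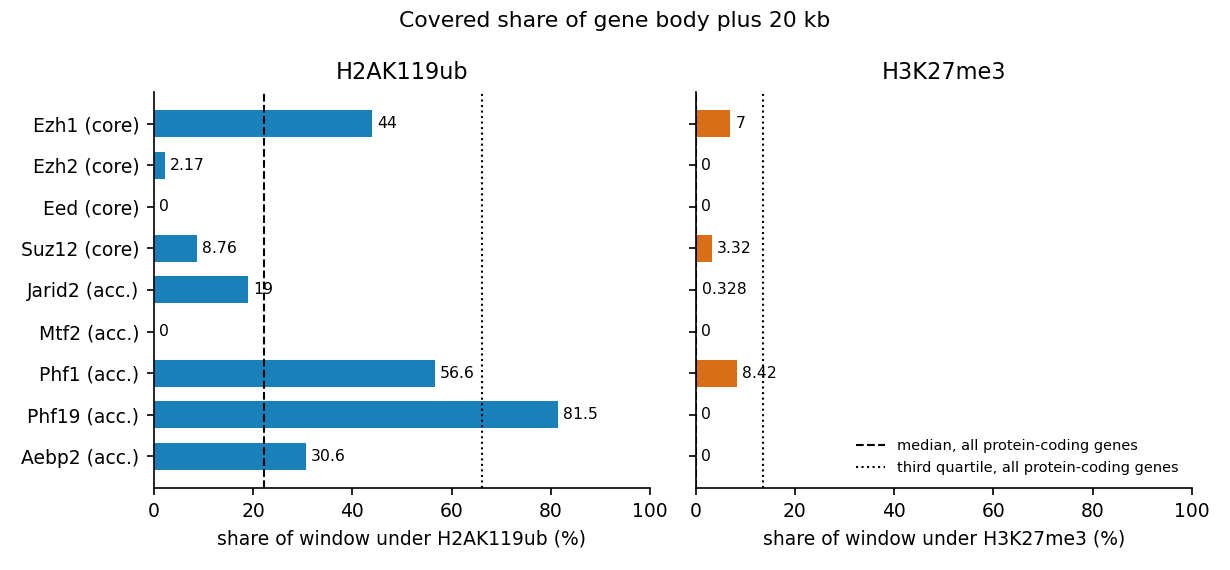
Share of each window (gene body plus 20 kb on each side, in %) under H2AK119ub (left) and H3K27me3 (right), 1 bar per gene with its value. Dashed and dotted lines give the median and the third quartile of 21631 protein-coding genes, and for H3K27me3 the median is 0. H2AK119ub runs from 0 at Eed and Mtf2 to 81.5% at Phf19, and H3K27me3 does not exceed 8.42%.

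Among the Polycomb-like genes, Phf1 and Phf19 lay in H2AK119ub chromatin and Mtf2 lay outside it. Phf1 (chr17:26933127-26937908, plus strand), the shortest member at 4.78 kb, was covered along its whole body by a 16.6 kb H2AK119ub region at chr17:26931389-26948000. That region also meets the close neighbours Cuta and Kifc5b, a kinesin gene. A second region of 26.1 kb began 16.0 kb downstream of the start. Within it lay a 3.77 kb H3K27me3 region, 12.6 kb beyond the end of Phf1. In all 56.6% of the Phf1 window was under H2AK119ub and 8.42% under H3K27me3.

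Phf19 (chr2:34893752-34914353, minus strand) had the highest H2AK119ub coverage of the members, 81.5% of the window and 90.8% of the body, and 16.8% of all genes had more. Its 3 regions followed each other with short gaps. The first, 14.4 kb at chr2:34906127-34920514, lay across the start, the second, 27.4 kb at chr2:34876792-34904231, ran over the end of the gene towards Cutal, and the third, 7.56 kb at chr2:34921418-34928981, lay upstream. No H3K27me3 region reached the window. The nearest was an 8.41 kb region at chr2:34935544-34943956, which overlaps Traf1, a gene of tumour necrosis factor receptor signalling, and lay 21.2 kb from the gene and so just outside the 20 kb limit.

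Mtf2 (chr5:108065660-108109219, plus strand) had neither mark in its window. The distance from the gene was 33.7 kb to the nearest H2AK119ub region, a 20.2 kb region at chr5:108011771-108031921, and 167 kb to the nearest H3K27me3 region. Neither of these regions overlaps a protein-coding gene.

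Jarid2 and Aebp2, the long accessory genes, carried H2AK119ub in separate blocks away from the start base. Jarid2 (chr13:44730774-44921643, plus strand) is the longest member at 191 kb. A 7.66 kb H2AK119ub region at chr13:44722318-44729976 ended 798 bp before its outermost start. Inside the gene were 3 regions of 3.35, 9.21 and 18.3 kb, the last at chr13:44901662-44919919 near the 3′ end, and 1 of 8.29 kb lay downstream over Dtnbp1, a dysbindin gene. Together they covered 44.0 kb of the 231 kb window. Jarid2 was the sole member with H3K27me3 on its body, in a region of 0.757 kb at chr13:44869385-44870141, 139 kb into the gene. That region lay under no H2AK119ub, and 99.6% of the H3K27me3 regions in the list were wider. Whether these intragenic regions lie in exons or introns was not analysed here.

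Aebp2 (chr6:140622454-140678472, plus strand) has 3 listed starts, none within 1 kb of a region. An 8.78 kb H2AK119ub region ended 12.9 kb upstream of the outermost start. At the other end a 9.49 kb region at chr6:140675836-140685321 reached over the last part of the gene, and a 30.8 kb region at chr6:140685900-140716704 followed, both over the non-coding gene Gm30215. H2AK119ub covered 30.6% of the window and 4.71% of the body. No H3K27me3 region reached the window. The nearest, 3.92 kb at chr6:140711898-140715814, lay 33.4 kb beyond the gene and inside the 30.8 kb H2AK119ub region.

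The distances from the start summarise these differences. For H2AK119ub the distance was 0 at Phf1 and Phf19, 0.798 kb at Jarid2, 1.11 kb at Suz12, 1.14 kb at Ezh1, 12.9 kb at Aebp2, 17.4 kb at Ezh2, 33.8 kb at Mtf2 and 47.7 kb at Eed. The median over all genes was 0.952 kb, which 6 of 9 members exceeded. For H3K27me3 it was 14.7 kb at Ezh1, 17.3 kb at Suz12, 17.4 kb at Phf1, 21.6 kb at Phf19, 37.0 kb at Jarid2, 89.2 kb at Aebp2, 167 kb at Mtf2, 304 kb at Ezh2 and 496 kb at Eed. The median over all genes was 48.3 kb, which 4 of 9 members exceeded. Eed, Ezh2, Mtf2 and Aebp2 were thus the 4 members farthest from either mark.

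**Figure D3:**
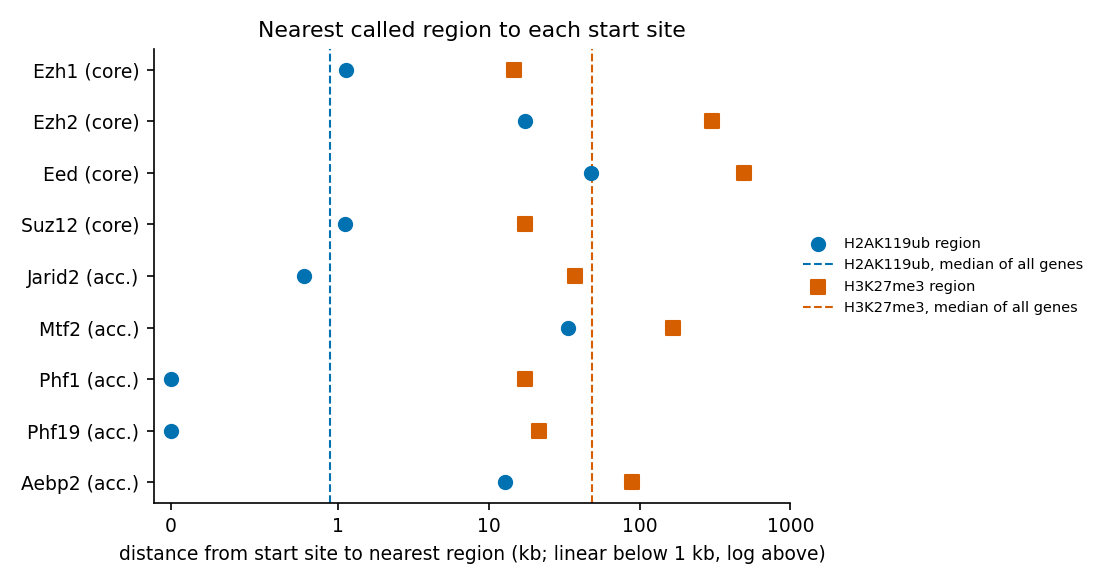
Distance in kb from the outermost start of each member to the nearest H2AK119ub region (circles) and H3K27me3 region (squares), on an axis that is linear below 1 kb and logarithmic above. Dashed lines give the medians of 17274 genes, 0.952 and 48.3 kb. At every member the nearest H3K27me3 region is farther away than the nearest H2AK119ub region.

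At Ezh1, Suz12 and Jarid2 the start itself was bare while an H2AK119ub region ended about 1 kb upstream of it. On the other side of these starts the next H2AK119ub region began 24210 bp away at Ezh1, 70545 bp at Suz12 and 58268 bp at Jarid2. A bare start with the nearest upstream region 500 to 1500 bp away was found at 3 of 9 members, against 7.25% of the 17274 genes. These limits were set once the distances were known, so the count is a description. Region edges depend on the unknown caller, whose part in this pattern was not tested.

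Where H3K27me3 was present in a window, it was mostly under H2AK119ub and off the body of the PRC2 gene. The 4 windows held 4 H3K27me3 regions, of 0.757 to 6.86 kb and so all narrower than the list's median of 8.43 kb. Those at Suz12 and Phf1 lay wholly under H2AK119ub, that at Ezh1 mostly, and that at Jarid2 not at all. Having both marks in 1 window is not particular to these genes. Of all protein-coding genes, 9619 had H3K27me3 over the window and 8728 had both marks. In such a window the marks need not overlap, as at Jarid2. The share of the whole H3K27me3 list under H2AK119ub was not computed, so whether the overlap itself is particular to these genes was not tested. The windows held 20 H2AK119ub regions, 9 of them on a gene body, with a median width of 9.35 kb against 8.09 kb for the list.

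Set side by side, the accessory genes had H2AK119ub on the gene more often than the core genes in these lists, and the covered shares of the groups overlapped. H2AK119ub lay on the body of 1 of 4 core genes and 4 of 5 accessory genes, against 57.2% of all genes. It lay within 1 kb of a start at 0 of 4 and 3 of 5, against 50.9% of genes with a listed start. That split depended on the 1 kb limit. The core genes Suz12 and Ezh1 fell just outside it, at 1115 and 1136 bp, and Jarid2 just inside, at 798 bp. Over the window H2AK119ub was present at 3 of 4 and 4 of 5. The median covered share of the window was 5.47% for core genes (range 0 to 44.0%) and 30.6% for accessory genes (range 0 to 81.5%), beside 22.1% for all genes. The core gene Ezh1 exceeded the accessory genes Jarid2, Mtf2 and Aebp2, and the accessory gene Mtf2 was as bare as Eed.

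H3K27me3 did not separate the groups. It was present over the window of 2 of 4 core and 2 of 5 accessory genes, and on the body of 0 of 4 and 1 of 5, against 25.7% of all genes. The median covered share was 1.66% in core and 0 in accessory genes, beside 0 for all genes, and no member exceeded the third quartile of all genes, 13.6%. Windows of longer genes meet a region more easily. The bodies had medians of 38.2 kb in core and 43.6 kb in accessory genes, against 17.3 kb for all genes.

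Wider flanks brought more members into reach of a region. With 50 kb on each side H2AK119ub was present at 9 of 9 members, against 77.4% of all genes, and H3K27me3 at 6 of 9, against 57.2%, with Phf19 and Aebp2 added.

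**Figure D4:**
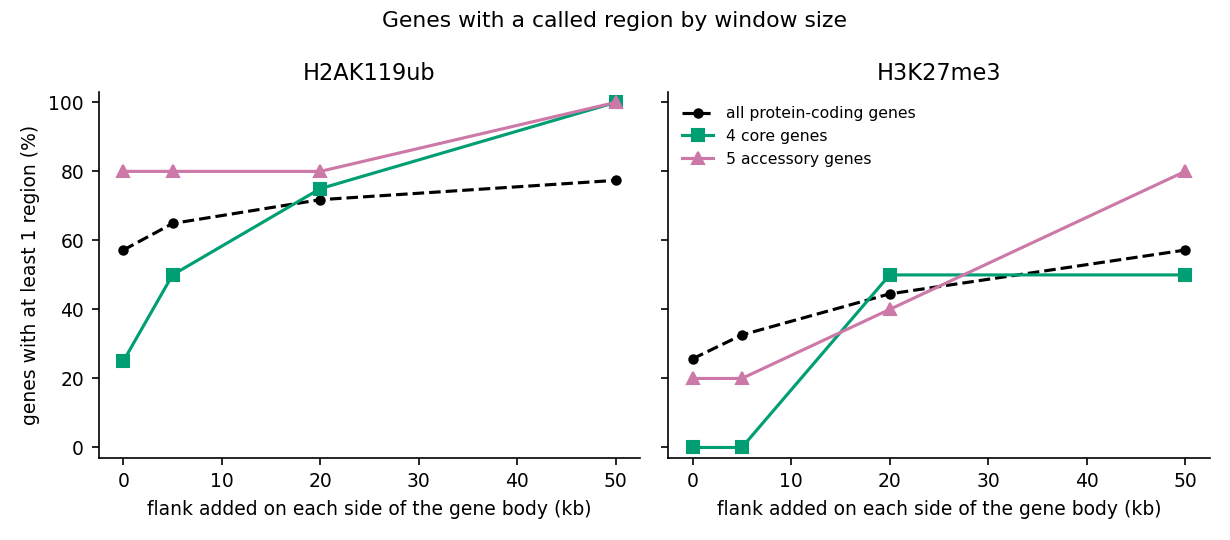
Share of genes (%) with at least 1 region of H2AK119ub (left) or H3K27me3 (right) as the flank on each side of the gene body grows from 0 to 50 kb, for 4 core genes, 5 accessory genes and all protein-coding genes. With no flank, 1 of 4 core and 4 of 5 accessory genes have H2AK119ub, and at 50 kb all members do.

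The outermost start sites of most members are rich in CpG dinucleotides, whether or not a mark was called there. In the window of 250 bases before to 50 after the outermost start, 8 of 9 members had more than the median of 14 CpG of all genes. The count was 24 at Phf1 and 38 at Phf19, whose starts lie under H2AK119ub. Among the others it was 41 at Suz12, 31 at Ezh2, 30 at Mtf2, 24 at Jarid2, 23 at Ezh1, 17 at Eed and 4 at Aebp2, so covered and bare starts overlapped. The second listed start had 21 at Aebp2, 23 at Jarid2 and only 2 at Mtf2, and the third of Aebp2 had 4. Over all genes the median was 19 for starts with H2AK119ub alone within 1 kb, 16 for starts with both marks and 7 for starts with neither.

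E2F factors drive genes of the cell cycle, and the same windows were searched on both strands for E2F-type motifs. The letters searched were TTCGCGC, the variant TTGGCGC found at Ezh2, the variant TTCCCGC found at Suz12 and on the other strand at Phf19, and the variant TTGCCGC. A match was present at the outermost start of 3 of 9 members, Ezh2, Suz12 and Phf19, against 12.4% of all genes. The motifs were chosen with earlier results of these data known, so these counts are a description. The second listed start of Aebp2 held a TTGCCGC match that began 61 bases before it. At Suz12 it began 218 bases and at Phf19 208 bases before the start, and at Ezh2 it began 4 bases after the start. The matches do not overlap one another. A match describes the letters only.

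As a whole list, the other Polycomb genes had higher median shares of both marks than these 9, and their groups differed. Of 33 further genes, all matched, 32 had H2AK119ub and 24 had H3K27me3 over the window, against 71.8% and 44.5% of all genes. Their median covered shares were 53.3% and 7.68%. Of the 33, 5 lie on X, where no member lies, and medians without them were not computed. Among the members the median for H2AK119ub was the share of Jarid2, and that for H3K27me3 was 0. The list included 5 other genes of PRC2 biology (Rbbp4, Rbbp7, Epop, Lcor and Lcorl). All 5 had both marks over the window, against 40.3% of all genes, with medians of 26.8% for H2AK119ub and 7.68% for H3K27me3. The 4 Cbx genes examined (Cbx2, Cbx6, Cbx7 and Cbx8), for chromodomain proteins with which PRC1 reads H3K27me3, had medians of 99.5% and 49.9%. The 8 genes for the catalytic and Pcgf subunits of PRC1 had 46.3% and 8.62%. The 10 other PRC1 genes, which include Bcor, Bcorl1 and Scml2 on X, had 53.4% and 18.3%. The H3K27 demethylase genes Kdm6a (on X) and Kdm6b had 42.0% and 8.83%. The 4 genes of the H2A deubiquitinase, which removes the ubiquitin of H2AK119ub, had medians of 9.91% and 0, no higher than those of the members, and Asxl2 among them had neither mark. Within 1 kb of a listed start, H3K27me3 was called at 12 of the 26 other Polycomb genes with one, against 21.6% of all such genes. The 12 include Rbbp7, Bcor, Bcorl1 and Scml2 on X, and over autosomal genes alone the background share was 18.7%. Among the other genes of PRC2 biology, 4 had a listed start, and the mark was called at 2, Rbbp7 (on X) and Lcorl. H3K27me3 covered most at Bcor (100%), Bcorl1 (99.0%), Rbbp7 (96.0%), Pcgf1 (86.4%) and Scml2 (84.1%). All but Pcgf1 of these lie on X. H2AK119ub covered the whole window of 4 genes, Cbx2, Cbx8, Pcgf1 and Bcor. Cbx2 and Cbx8 are close neighbours whose windows overlap. These shares were not tested against those of the members.

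**Figure D5:**
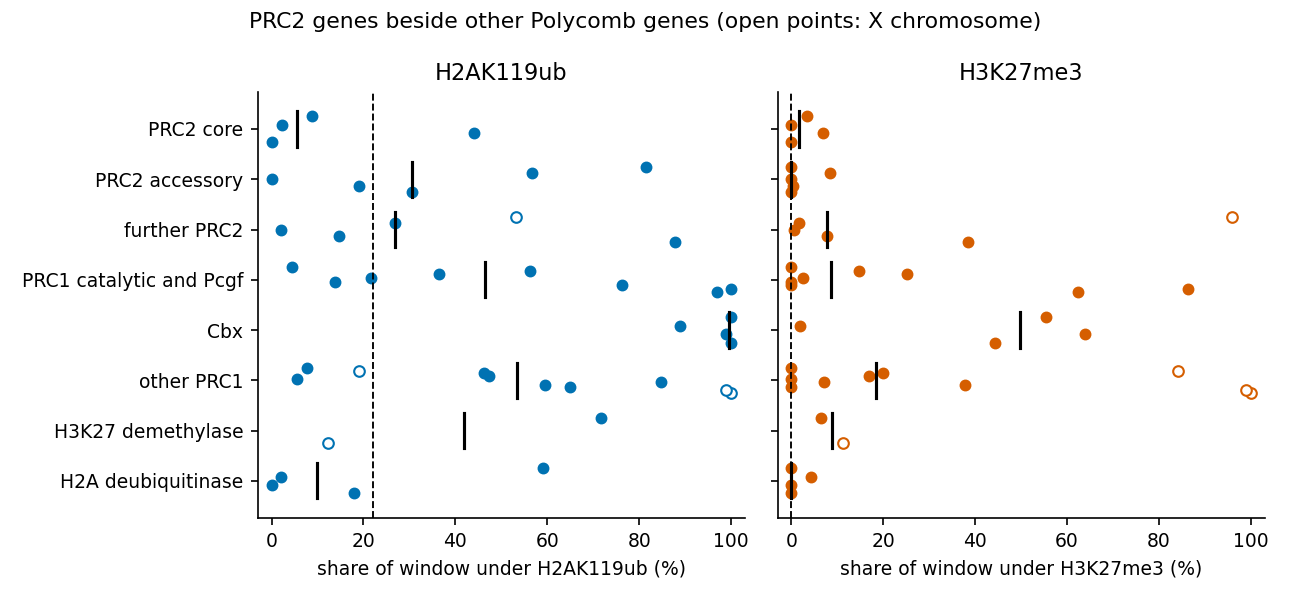
Share of the window (gene body plus 20 kb, in %) under H2AK119ub (left) and H3K27me3 (right) for the PRC2 genes and 33 other Polycomb genes, 1 point per gene and open points for X. Short vertical lines are group medians and the dashed line is the median of all protein-coding genes. The core genes have a median of 5.47% for H2AK119ub and the Cbx genes 99.5%.

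Marker genes were read at their annotated ends as a check of the labelled cells. H3K27me3 was called at 0 of 6 basal epidermal genes (Krt5, Krt14, Itga6, Itgb4, Trp63 and Col17a1), 1 of 3 suprabasal genes, 3 of 3 fibroblast genes, 2 of 3 immune genes, 0 of 4 melanocyte genes and 0 of 2 endothelial genes, against 24.7% of all protein-coding genes. H2AK119ub was called at 5 of 6 basal, 3 of 3 suprabasal, 2 of 3 fibroblast, 2 of 3 immune, 1 of 4 melanocyte and 1 of 2 endothelial genes, against 57.1% of all. The lists do not measure RNA, so the presence of other cells was not tested.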

How the data were processed

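Chromatin of sorted epidermal cells was analysed by ChIP-seq in 5 libraries, made from 5 ng of DNA and read as single reads of 75 nt, per the labels' protocols. The authors deposited 33155 called regions for H2AK119ub and 15102 for H3K27me3, each as a chromosome with its start and end coordinates, per the file headers. Per the submitters' processing notes, Bowtie2 2.3.3.1, SAMtools 1.9 and the build mm10 were used. Not given in the sources used here are the peak caller, its threshold, whether input was used and whether libraries were pooled, so list sizes do not compare amounts of the marks, and an absent region may be a mark below the threshold.

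Starts were read as counted from 0. Genes came from RefSeq (GRCm38.p6, the assembly of mm10), on 19 autosomes and X, and start sites from its promoter table, which held all 9 members. A gene was called marked when at least 1 bp of a region lay in the window. Values are set beside those of all protein-coding genes, without tests, because genes are not replicates. The members, the 33 other Polycomb genes, the markers and the motifs were chosen with earlier results of these data known. All members were named. Of the other Polycomb genes, those with the 5 largest H3K27me3 shares and the largest H2AK119ub shares were named (4 tied where 3 were planned), and up to 3 neighbours per region. Some genes that these rules take are not reported here. Overlap functions, tested on simulated data, gave 0 mismatches in 4000 windows. Python 3.11.15, numpy 2.4.6 and pandas 2.3.3 were used.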

Additional observations from a re-analysis of the deposited data

How the results depend on the processing

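Of 76 alternative values, 54 stayed within 1.5 times the reported one, 21 moved further and 1 changed sign. The 54 include median shares under an overlap of at least 1000 bp, which that setting cannot change. They also include H3K27me3 values under equal numbers of regions, which cannot change either. The H3K27me3 counts rested on the 20 kb flanks. With the gene body alone, with 5 kb flanks or with regions of at least 5 kb, 1 member had H3K27me3 and 1 had both marks. All genes gave 25.7% and 22.5% with the body alone, and 32.6% and 28.5% with 5 kb flanks. In the same order, core genes with H3K27me3 were 0, 0 and 1, and accessory genes 1, 1 and 0. An overlap of at least 1000 bp left 1 accessory gene, and 50 kb flanks gave 4. The core minus accessory difference in median H3K27me3 share was 0 in the first 3 settings and changed sign to -0.880 percentage points with 50 kb flanks. For H2AK119ub, 1 core gene was marked on the body alone, and the core minus accessory difference in median share, -25.1 points as reported, was -16.1 on the body alone and -15.9 with 5 kb flanks. It stayed negative in all 8 alternatives, though the overlap of at least 1000 bp cannot change a covered share. Within 5 kb of a start, 5 members had H2AK119ub, with the core genes Ezh1 and Suz12 added, against 57.1% of 17274 genes. The background over autosomal genes was added once the data were known. Equal numbers of regions in both lists, joined regions and starts counted from 1 moved no value by over 1.5 times. The equal number was 15102, the full size of the H3K27me3 list, so that setting removed H2AK119ub regions only. No paired analysis was possible because each mark has 1 region list and no replicate columns, and for the same reason no replicate could be left out. Read depth is unknown, so no limit of detection can be given.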
